A study of Mus musculus with 12 samples.

Results

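Transcripts of 10 integrin subunits were followed in mouse MC38 tumor cells that carried either wild-type RAC1 or the RAC1 A159V substitution. The members were the rows whose Ensembl gene identifier carries the symbol Itga1, Itga2, Itga3, Itga5, Itga6, Itgav, Itgb1, Itgb3, Itgb5 or Itgb7 in GENCODE M21, that is 10 of the 33219 features in the count table. All 10 were found, and 9 of them passed the filter on low counts. The exception was Itga2.

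MC38 is a mouse colon cancer cell line, and the mutant cells were homozygous for an A159V codon knocked into the endogenous locus by CRISPR-Cas9 editing. Mutant cells are taken to be clone 9, the clone used where no other is named, so genotype and clone cannot be told apart. Tumors were grown under the skin of C57BL/6 mice aged 6 to 8 weeks. Mice received 100 μg of antibody to PD1, the inhibitory receptor of T cells, or of IgG isotype control, every 3 days from day 3, and tumors were taken on day 13. Tumor cells were purified magnetically from each tumor, and poly(A) RNA was sequenced. The 4 groups of 3 mice were WT IgG (replicates 1, 2 and 4), WT anti-PD1 (replicates 1, 2 and 3), A159V IgG (replicates 1, 2 and 5) and A159V anti-PD1 (replicates 1, 2 and 3), each sample being 1 mouse. Libraries held 14053582 to 21949942 counted fragments, so that a count of 3 was worth 0.137 to 0.213 CPM, the unit used throughout (counts scaled to a common library size).

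Integrins are αβ heterodimers that bind extracellular matrix outside the cell and couple through talin, kindlin and vinculin to actin inside it. Ligand-bound integrins activate focal adhesion kinase and Src, and through p130Cas with DOCK1 and ELMO, or through βPIX, VAV and TIAM exchange factors, they load RAC1 with GTP, so that they stand upstream of the mutated GTPase. The α subunit sets most of the ligand choice: α3 and α6 bind laminins, α5 binds fibronectin, α1 and α2 bind collagens, and αv binds vitronectin, fibronectin and osteopontin through RGD motifs.

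Compared per kilobase of exon, Itgb1 was far the most abundant member in every group, and Itga2 the least. The mean Itgb1 level over the 12 samples was 180.1 CPM per kilobase (CPM scaled by trimmed mean of M values and divided by the union exon length). Itgb5 followed at 20.7, Itga5 at 19.6, Itgav at 11.5 and Itga6 at 8.16 CPM per kilobase. Itga3 (4.65), Itgb7 (3.62), Itga1 (0.232), Itgb3 (0.163) and Itga2 (0.0123) were lower. The order of the 10 means was the same with the longest transcript as the length. Some neighbours in this order did not separate: sample values of Itga5 and Itgb5 overlapped in WT IgG, WT anti-PD1 and A159V anti-PD1 tumors, and those of Itgav and Itga6 overlapped in both A159V groups. In the A159V anti-PD1 group Itgb7 stood above Itga3, with overlapping samples.

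**Figure D1:**
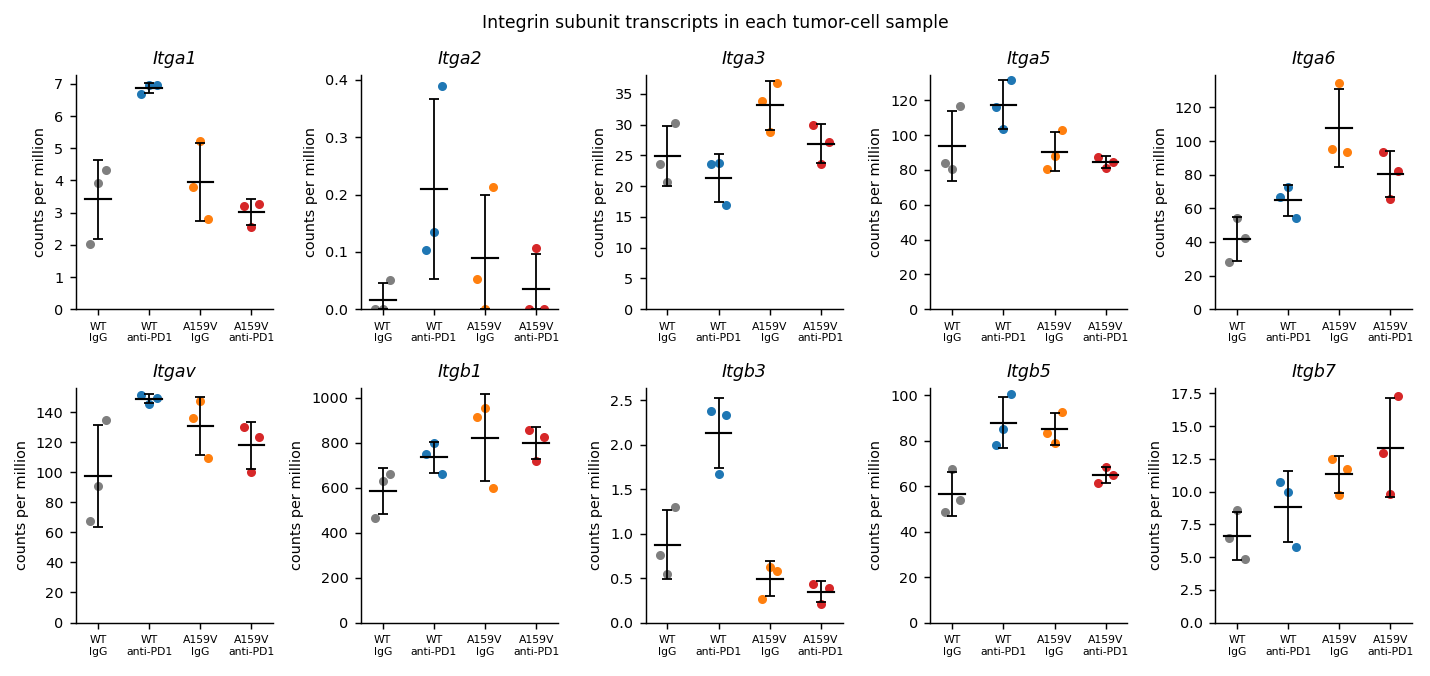
Transcript level of each of the 10 integrin subunits in CPM (vertical axes, linear from 0) in the 4 groups (horizontal axes). Points are single mice, horizontal lines are means and bars are 1 SD of 3 samples, cut at 0 for Itga2. Itga6 is lowest in the WT IgG samples (28.4 to 54.4 CPM), and Itgb3 is highest in the WT anti-PD1 samples (1.68 to 2.38 CPM).

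The samples were checked against their labels before the members were compared. The cell type given is adenocarcinoma, yet the epithelial marker Epcam had 0 counts in 9 samples and at most 2 in the others, and the keratin gene Krt8 had 2 to 13. The 8 epithelial markers together, led by Cldn4, gave 1.26 to 6.64 CPM per sample. Fibroblast-type genes were abundant, with the 10 listed markers summing to 575 to 1666 CPM in WT samples and 251 to 348 CPM in A159V samples. Replicates of the 2 IgG groups spread more widely than those with anti-PD1, with a Pearson r of log2 CPM across genes of 0.964 to 0.985 in WT IgG and 0.972 to 0.992 in A159V IgG, against 0.989 to 0.990 in WT anti-PD1 and 0.988 to 0.990 in A159V anti-PD1. A159V IgG replicate 5 stood apart in some adhesion genes: Rap1a was at 25.2 CPM there and at 84.8 and 88.1 CPM in the other A159V IgG samples, and Yes1 at 20.3 against 57.1 and 64.2 CPM. Results that rest on WT IgG replicate 4 or another single sample are given with and without it.

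Genotype was tested separately under IgG and under anti-PD1, in comparisons that share no sample. A gene was called changed when its Benjamini-Hochberg adjusted p in edgeR's quasi-likelihood test was under 0.05 over 14340 genes and its log2 fold change exceeded 0.3 in size. Under IgG, Itga6 and Itgb5 rose in A159V cells and no member fell, so 2 of 9 tested members were called higher against a background of 15.6% of all genes called higher and 12.4% called lower. Under anti-PD1, Itgb3, Itga1, Itga5 and Itgb5 were lower in A159V cells and no member was higher, so 4 of 9 were called lower against a background of 10.2% lower and 11.2% higher. Leaving out 1 sample gave 1 to 5 members called under IgG, where 2578 to 4717 of all genes were called. Under anti-PD1 it gave 1 to 2 members and 1519 to 2171 genes. Groups did not overlap for 3 members under IgG and for 5 under anti-PD1, where the background was 35.8% and 56.1% of genes. The median log2 fold change of the 9 members was 0.42 under IgG (0.02 over all genes) and -0.34 under anti-PD1 (0.06 over all genes). Itgb5 was called in both comparisons, with opposite signs. Scaling moved the balance of all genes: 2231 were called higher and 1779 lower under IgG with trimmed means, 1680 and 2052 with relative log expression, and 1337 and 2313 with upper quartiles, which shifted the median of all genes to -0.12. Under anti-PD1 the splits were 1613 and 1462, 1123 and 1672, and 931 and 1788. No member changed sign in either comparison under these scalings.

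**Figure D2:**
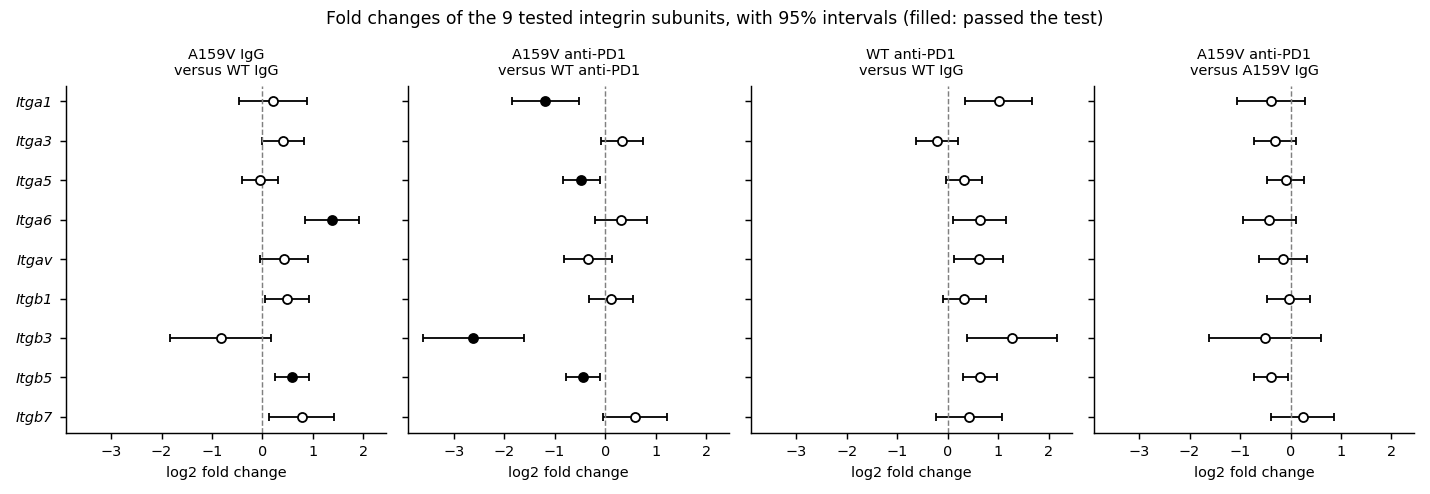
Log2 fold change (horizontal axes) of the 9 tested integrin subunits (rows) in 4 comparisons (panels), with bars for 95% intervals and filled points for members that passed the test. Filled points lie right of 0 under IgG (Itga6 at 1.37 and Itgb5 at 0.59), lie left of 0 in A159V anti-PD1 against WT anti-PD1 (Itgb3 furthest, at -2.61), and are missing from both treatment panels.

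Of the laminin-binding α members, Itga6 was called under IgG and Itga3 was not. Itga6 (chr2:71745616-71858416, plus strand, mm10) encodes α6, which pairs with β1 in many cells and with β4 in epithelial hemidesmosomes. Its level was 28.4, 54.4 and 42.4 CPM in WT IgG replicates 1, 2 and 4, and 95.2, 134 and 93.6 CPM in A159V IgG replicates 1, 2 and 5. Every A159V IgG sample lay above every WT IgG sample, a 2.58-fold difference (log2 1.37 ± 0.23 SE, adjusted p = 0.00134 in edgeR). With anti-PD1 the WT samples held 66.7, 73.0 and 54.5 CPM and the A159V samples 93.5, 65.9 and 82.1 CPM. These groups overlapped, and the difference missed the threshold (log2 0.31, 95% interval -0.21 to 0.84, adjusted p = 0.346). Itga6 was called under IgG in all 13 alternatives. Among these, dropping the fold limit keeps the main fit and cannot lose a call. In bulk RNA a lower level from fewer cells of a type and one from less RNA per cell cannot be told apart.

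The other partner of α6 moved the opposite way. Itgb4, from the list of 18 other integrin subunits, encodes the β4 chain of the α6β4 laminin receptor, and held 25.1, 32.0 and 38.0 CPM in WT IgG against 6.98, 7.54 and 9.30 CPM in the A159V IgG samples. It was lower in A159V cells under IgG (95% interval of the log2 difference -2.48 to -1.51, adjusted p = 7.99e-05) and under anti-PD1 (log2 -2.24 ± 0.21, adjusted p = 4.03e-05), with no overlap between genotypes in either. The ratio of Itgb4 to Itga6 per kilobase, which no library scaling can move, was 1.14, 0.757 and 1.15 in WT IgG and 0.0944, 0.0722 and 0.128 in A159V IgG. Under anti-PD1 it was 0.593, 0.702 and 1.15 in WT and 0.110, 0.189 and 0.119 in A159V. All WT values exceeded all A159V values in both pairs of groups, which under IgG follows from the separate values of the 2 genes. An antisense gene overlaps 7.66% of the exon bases of Itgb4, and whether counting used strand is not given in the sources used here.

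Itga3 (chr11:95044474-95076801, minus strand), the α3 chain of a laminin receptor with β1, differed little. It ranged from 20.7 to 30.3 CPM in WT IgG and from 28.8 to 36.7 CPM in A159V IgG, with overlap (log2 0.41, adjusted p = 0.107). Without WT IgG replicate 4 it was called (log2 0.58, adjusted p = 0.0305). Under anti-PD1 the genotypes overlapped again (16.9 to 23.7 CPM in WT, 23.6 to 29.9 CPM in A159V, log2 0.33, adjusted p = 0.215).

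Among the laminin chains described here, 3 were called higher in A159V cells under IgG, 1 lower and 2 were not called. Lamc1, the γ1 chain of most laminins, was higher (417 against 237 CPM, log2 0.82, adjusted p = 0.0259), as were the low α chains Lama1 (3.13 against 1.04 CPM) and Lama3 (4.86 against 2.39 CPM). Lama4, a low α chain of vessel walls, was lower (0.213 against 1.93 CPM, log2 -3.11, adjusted p = 0.00876), with log2 -2.26 without WT IgG replicate 1 and -4.49 without A159V IgG replicate 2. Lama5 (309 against 255 CPM) and Lamb1 (195 against 167 CPM) were not called. Lamc1 lost its call without WT IgG replicate 1 or 2, or without A159V IgG replicate 2 or 5. Lama1 lost it without WT IgG replicate 1 or 2 or A159V IgG replicate 2. With anti-PD1, Lamc1 held 316 CPM in A159V against 393 CPM in WT and was not called (adjusted p = 0.383).

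Among the RGD-binding receptors, Itgb5 gave opposite genotype differences under the 2 antibodies. Itgb5 (chr16:33829665-33949338, plus strand) encodes β5, which pairs with αv alone to bind vitronectin. WT IgG samples held 48.5, 67.4 and 53.9 CPM and A159V IgG samples 83.6, 79.0 and 92.7 CPM. The A159V samples were all higher (log2 0.59 ± 0.15, adjusted p = 0.0105). With anti-PD1, WT samples held 78.3, 85.2 and 101 CPM and A159V samples 61.2, 68.5 and 64.8 CPM, so that the A159V samples were all lower (log2 -0.44 ± 0.14, adjusted p = 0.0455). The higher level under IgG lost its call without WT IgG replicate 1 (log2 0.43, adjusted p = 0.0599) or when only the groups compared were fitted (0.111), and the lower level under anti-PD1 lost it when any 1 of the 6 samples was left out (adjusted p 0.0526 to 0.207) or no filter on low counts was used (0.0566).

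The partner Itgav (chr2:83724397-83806916, plus strand), the αv chain common to the vitronectin receptors, was among the more abundant α subunits. It held 67.7, 90.5 and 134 CPM in WT IgG against 136, 147 and 110 CPM in the A159V IgG samples, and the groups overlapped because of WT IgG replicate 4. The difference was not called (log2 0.42, adjusted p = 0.145), but it was without that replicate (log2 0.73, adjusted p = 0.0087). Under anti-PD1 the 3 WT samples lay close together at 151, 145.5 and 149 CPM, all above the A159V samples at 130, 99.8 and 123.5 CPM (log2 -0.34, adjusted p = 0.269). An antisense gene overlaps 5.90% of the exon bases of Itgav.

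Itgb3 (chr11:104608000-104670476, plus strand) encodes β3, the αv partner in endothelial and bone-resorbing cells and the αIIb partner in platelets, and it was scarce. Its raw counts were 14, 9 and 26 in WT IgG, 46, 25 and 42 in WT anti-PD1, 5, 13 and 11 in A159V IgG, and 8, 4 and 7 in A159V anti-PD1. The WT anti-PD1 samples (1.68 to 2.38 CPM) stood above all the others, and those of A159V anti-PD1 (0.213 to 0.436 CPM) were 6.10-fold lower (log2 -2.61 ± 0.43, adjusted p = 0.00138). This call held in all 13 alternatives. Under IgG the genotypes overlapped (log2 -0.83, 95% interval -1.83 to 0.17, adjusted p = 0.168). The platelet marker Itga2b, the αIIb partner, was at 9.51 CPM in A159V IgG against 10.8 CPM in WT IgG and was not called, and Pf4 had at most 4 counts in any sample.

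A further αv partner, Itgb8, was detected in WT cells alone. It had 25, 26 and 149 counts in WT IgG and 42, 19 and 46 in WT anti-PD1, and 0 counts in all 6 A159V samples. Against a floor of 3 counts per library (0.154 CPM) the A159V IgG level was at least 22.6-fold lower than the WT IgG mean of 3.48 CPM, and at least 9.60-fold lower without WT IgG replicate 4. Under anti-PD1 it was at least 12.3-fold lower, and both differences passed the test (adjusted p = 0.00214 and 0.00526). Of the ligands of these receptors, Spp1 (osteopontin) was lower in A159V cells under IgG (1344 against 2186 CPM, log2 -0.70, adjusted p = 0.00949) and under anti-PD1 (log2 -0.88, adjusted p = 0.00328). Edil3, a secreted RGD protein, was lower too, at 3.77 against 38.7 CPM under IgG (log2 -3.35, adjusted p = 0.000261), and log2 -2.69 without WT IgG replicate 4. Tnc (tenascin C), another matrix ligand of αv receptors, went the other way, at 48.9 against 13.03 CPM under IgG (log2 1.90 ± 0.35, adjusted p = 0.00208) and 34.9 against 14.995 CPM under anti-PD1 (log2 1.21 ± 0.34, adjusted p = 0.0236), where the call was lost without A159V anti-PD1 replicate 1 or 2 or WT anti-PD1 replicate 2. Postn (periostin) was lower in A159V cells under IgG (1.17 against 10.97 CPM, log2 -3.20, adjusted p = 0.0102), with log2 -2.11 without WT IgG replicate 1 and -4.15 without A159V IgG replicate 2. Vitronectin itself did not pass the filter.

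The bases before the start of the called members are shown where the RefSeq table of promoters (GRCm38.p6) held an entry, since these 3 genes differed between genotypes under anti-PD1. The table matched 8 of the 10 members. Itga6 and Itgb3 had no entry. Each line gives the 250 bases before the annotated start, 5′ to 3′ on the gene's strand, in lower case, with the GC box GGGCGG on either strand in capitals. The first lies at chr16:33829415-33829664, the second at chr15:103366792-103367041 and the third at chr13:115101965-115102214.
Itgb5: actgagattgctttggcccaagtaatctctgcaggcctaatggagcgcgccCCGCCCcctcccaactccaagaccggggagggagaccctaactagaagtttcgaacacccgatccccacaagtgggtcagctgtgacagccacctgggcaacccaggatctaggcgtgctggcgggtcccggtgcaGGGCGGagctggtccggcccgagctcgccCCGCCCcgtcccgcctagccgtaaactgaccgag
Itga5: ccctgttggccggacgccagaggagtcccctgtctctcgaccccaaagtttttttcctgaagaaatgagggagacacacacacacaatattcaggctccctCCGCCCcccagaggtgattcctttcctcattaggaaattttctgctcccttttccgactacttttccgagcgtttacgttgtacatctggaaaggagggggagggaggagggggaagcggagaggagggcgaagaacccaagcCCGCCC
Itga1: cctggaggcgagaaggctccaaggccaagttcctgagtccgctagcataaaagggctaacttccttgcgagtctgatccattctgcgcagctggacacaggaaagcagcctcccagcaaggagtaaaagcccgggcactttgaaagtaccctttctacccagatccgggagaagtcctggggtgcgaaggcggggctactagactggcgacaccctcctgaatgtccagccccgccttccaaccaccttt
GGGCGG on either strand occurred in 32.7% of the 32851 promoters of the table over the same 250 bases, 3 times in that of Itgb5, 2 times in that of Itga5 and not in that of Itga1. None of the 3 held the TATA box TATAAA (12.4% of all promoters), the CCAAT box CCAAT (33.8%) or the AP-1 motif TGANTCA (6.7%), each searched on both strands. These motifs do not overlap GGGCGG. The G and C content was 65.2% for Itgb5, 55.6% for Itga5 and 57.6% for Itga1, against a median of 52.4% over all promoters.

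The fibronectin receptor chain Itga5 (chr15:103344286-103366763, minus strand) encodes α5, which pairs with β1. It overlapped between genotypes under IgG, at 84.0, 80.7 and 117 CPM in WT and 80.6, 87.9 and 103 CPM in A159V samples (log2 -0.05, 95% interval -0.42 to 0.31, adjusted p = 0.826). With anti-PD1 WT samples held 116, 104 and 132 CPM and A159V samples 87.7, 80.9 and 84.8 CPM. The WT samples were all higher, and the A159V level was called lower (log2 -0.47 ± 0.16, adjusted p = 0.0470). That call was lost when any 1 of the 6 samples was left out (adjusted p 0.0575 to 0.194).

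Its ligand Fn1 (fibronectin) varied widely in WT IgG. Those samples held 529, 1253 and 2193 CPM, against 2246, 3525 and 4368 CPM in A159V IgG, all higher (log2 1.35 ± 0.39, adjusted p = 0.0226). The call was lost without WT IgG replicate 2, without A159V IgG replicate 2 or 5, or with only the groups compared. With anti-PD1 the order turned, at 2662, 2638 and 3600 CPM in WT and 1634, 2261 and 1990 CPM in A159V, but the difference was not called (log2 -0.60, adjusted p = 0.292).

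The collagen receptors were scarce, and their ligands were not. Itga1 (chr13:114953096-115101964, minus strand) encodes α1, and Itga2 lies next to it. Itga1 held 2.02, 3.91 and 4.32 CPM in the WT IgG samples, 3.81, 5.23 and 2.82 CPM in those of A159V IgG, 6.68, 6.97 and 6.96 CPM in WT anti-PD1 and 3.21, 2.55 and 3.28 CPM in A159V anti-PD1. The 3 WT anti-PD1 samples stood above the other 9 samples. Under anti-PD1 the A159V level was 2.28-fold lower (log2 -1.19 ± 0.29, adjusted p = 0.0118), a call lost only without A159V anti-PD1 replicate 2 among the 13 alternatives (adjusted p = 0.0511). Under IgG no difference was found (log2 0.21, 95% interval -0.46 to 0.88, adjusted p = 0.614). Itga2 (chr13:114833081-114932100, minus strand) had 0, 0 and 1 counts in WT IgG, 2, 2 and 7 in WT anti-PD1, 1, 0 and 4 in A159V IgG and 0, 2 and 0 in A159V anti-PD1, at or under the floor in all but 2 samples, and was not tested. A same-strand gene overlaps 3.68% of the exon bases of Itga1.

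Of the 8 collagen genes in the ligand list, 5 were lower in A159V cells under IgG and 6 under anti-PD1, and none was higher. With 1 sample left out, 4 to 5 were lower and at most 1 was higher under IgG, and 3 to 6 were lower under anti-PD1, with 3 without WT anti-PD1 replicate 3 or A159V anti-PD1 replicate 2. The basement membrane chains Col4a1 and Col4a2 were not called under IgG (log2 0.67, adjusted p = 0.0652, and log2 0.38, adjusted p = 0.228), and under anti-PD1 Col4a2 was lower (log2 -0.82, adjusted p = 0.0222) and Col4a1 was not called (log2 -0.72, adjusted p = 0.0591). The Col4a2 call was lost without any of WT anti-PD1 replicates 2 and 3 and A159V anti-PD1 replicates 1, 2 and 3. Among the fibrillar and type VI collagens, Col1a1 was at 17.8 CPM in A159V and 142 CPM in WT under IgG (95% interval of the log2 difference -4.11 to -1.88, adjusted p = 0.00105), Col3a1 at 56.6 and 358 CPM (log2 -2.66, adjusted p = 0.000214) and Col6a1 at 359 and 1033 CPM (log2 -1.52, adjusted p = 0.00708). Col1a1, Col3a1 and Col6a1 were also lower under anti-PD1, with log2 differences of -1.67, -2.94 and -2.54, as was Col6a2 (log2 -3.04, adjusted p = 0.000409), although there Col1a1 lost its call without A159V anti-PD1 replicate 1 or 2 or WT anti-PD1 replicate 2 or 3. Itga10, another collagen receptor chain, was lower too (4.58 against 1.83 CPM under IgG, log2 -1.32, adjusted p = 0.0107), with 33.5% of its exon bases inside another gene model of the same strand. Over the 35 matrix ligands, 32 were tested, 6 rose and 12 fell in A159V cells under IgG (median log2 -0.36), beside 15.6% and 12.4% of all genes, and 2 rose and 12 fell under anti-PD1 (median -0.78), beside 11.2% and 10.2%. Leaving out 1 sample gave 3 to 7 risen and 9 to 13 fallen ligands under IgG, with 3 risen without A159V IgG replicate 2 or 5, and 0 to 1 and 8 to 11 under anti-PD1.

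Itgb1 (chr8:128685654-128733200, plus strand) encodes β1, the common partner of α1, α2, α3, α5 and α6, and passed no pairwise test. It held 467, 629 and 659 CPM in WT IgG against 912, 954 and 599 CPM in the A159V IgG samples, where replicate 5 lay inside the WT range (log2 0.49 ± 0.19, adjusted p = 0.0691). Without A159V IgG replicate 5 it was called (log2 0.60, adjusted p = 0.0145), as it was without WT IgG replicate 4 (adjusted p = 0.0487). Under anti-PD1 it held 748, 796 and 660 CPM in WT and 855, 720 and 825 CPM in A159V, with overlap (log2 0.12, 95% interval -0.31 to 0.56, adjusted p = 0.680).

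Itgb7 (chr15:102215995-102231944, minus strand) encodes β7, the lymphocyte chain that pairs with α4 for gut homing and with αE for binding E-cadherin. It held 6.45, 8.56 and 4.87 CPM in WT IgG against 12.5, 9.75 and 11.7 CPM in the A159V IgG samples, all higher than WT, yet the difference just missed the threshold (log2 0.78 ± 0.28, adjusted p = 0.0534, and 0.0509 to 0.201 over 13 alternatives). Under anti-PD1 it held 10.8, 9.99 and 5.73 CPM in WT and 12.97, 9.83 and 17.3 CPM in A159V, with overlap (log2 0.60, adjusted p = 0.136). Of the 5 pan-leukocyte markers, 3 were lower in A159V IgG than in WT IgG (Ptprc, Cd52 and Coro1a), while Laptm5 (log2 -0.76, adjusted p = 0.119) and Cd53 (log2 1.17, adjusted p = 0.127) were not called. With 1 sample left out 1 to 4 were lower, with 1 without WT IgG replicate 4 or A159V IgG replicate 1, and 1 was higher without WT IgG replicate 4 or A159V IgG replicate 5. The summed B cell and myeloid markers were higher in A159V IgG, as given with the other markers. Its partner Itga4 had 0 counts in all A159V IgG samples, and Itgae was at 1.05 CPM. Another leukocyte subunit, Itgal (αL), was also higher, at 6.39, 7.28 and 6.12 CPM in WT IgG against 19.6, 16.8 and 16.5 CPM in the A159V IgG samples (log2 1.42 ± 0.15, adjusted p = 9.54e-05), while its partner Itgb2 was lower (2.55 against 6.26 CPM, log2 -1.31, adjusted p = 0.0214), a call lost without WT IgG replicate 1 or 4 or A159V IgG replicate 2.

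Across the list of 18 other integrin subunits, 13 genes were tested. The list also holds Itgbl1, an integrin β-like gene that does not encode a receptor subunit. Under IgG 3 rose and 5 fell in A159V cells (median log2 -0.96, or -0.91 with subunits at 0 set to their bound), beside 15.6% and 12.4% of all genes, and under anti-PD1 1 rose and 7 fell (median -0.99), beside 11.2% and 10.2%. Of those 7, Itga4, Itgam and Itgb2 encode leukocyte chains: Itgb2 was at 2.50 CPM in A159V anti-PD1 against 10.1 CPM in WT anti-PD1 (log2 -2.01, adjusted p = 0.00268), and Itgam had 0 to 1 against 15 to 27 counts. The 5 pan-leukocyte markers summed to 4.76 and 32.8 CPM in the same groups, and their part in this count was not tested. Leaving out 1 sample left 2 risen and 3 to 5 fallen subunits under IgG, with 3 fallen without WT IgG replicate 1 or A159V IgG replicate 2, and 1 and 5 to 7 under anti-PD1. Itga7, a laminin-binding α chain of muscle, was higher in A159V cells under both antibodies (16.7 against 10.3 CPM, log2 0.70, adjusted p = 0.0083, and 19.2 against 8.50 CPM, log2 1.17, adjusted p = 0.000465). Its call under IgG was lost when only the groups compared were fitted (adjusted p = 0.111 in edgeR).

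As shares of the summed α level per kilobase over the 6 α members, α6 held more and α5 less in A159V cells. Itga6 took 10.2, 17.4 and 10.1% in WT IgG and 23.1, 28.8 and 21.6% in A159V IgG samples. Itga5 took 51.2% ± 4.13 (SD, n = 3) in WT IgG and 37.9% ± 4.82 (SD, n = 3) in A159V IgG. Under anti-PD1 the Itga6 share was 14.7% ± 2.54 in WT and 21.2% ± 1.56 in A159V (SD, n = 3). Samples did not overlap in any of these 3 contrasts (exact permutation p = 0.1, the smallest possible with 3 against 3). The Itgav share differed less, at 23.9% in WT IgG and 25.2% in A159V IgG, with overlap (exact permutation p = 0.6). Itga5 itself held a mean of 19.0 CPM per kilobase in WT IgG and 18.3 in A159V IgG. Its lower share under IgG thus came with a larger sum of the other α members. These shares do not depend on library scaling, but they do depend on the exon length, since Itga6 has 9025 bases of union exon and 4310 in its longest transcript.

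**Figure D3:**
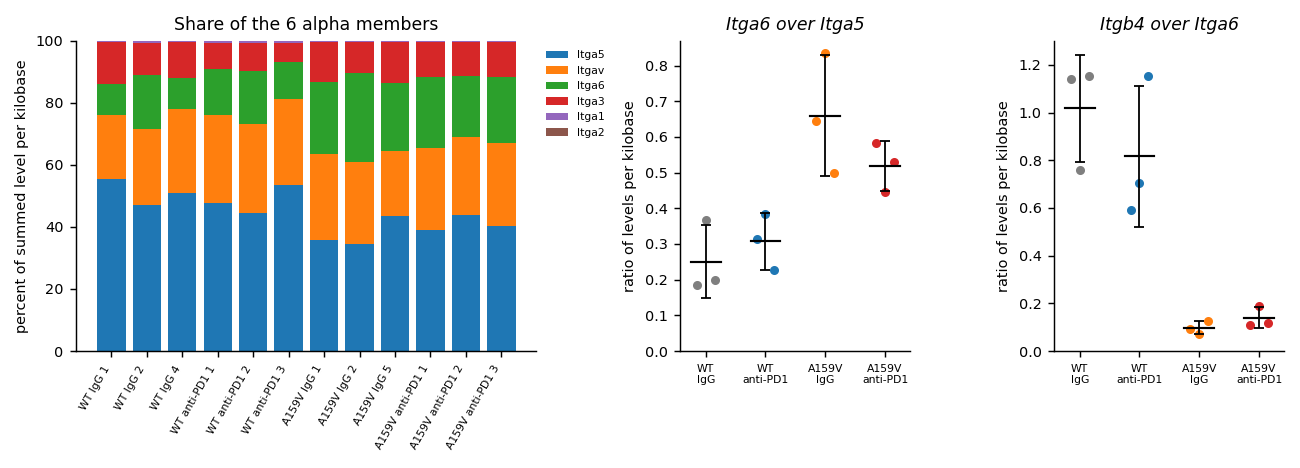
Left, the share (percent) that each of 6 α subunits takes of their summed level per kilobase in each of the 12 samples. Middle and right, the ratio of Itga6 to Itga5 and of Itgb4 to Itga6 per kilobase, with points for single mice, lines for means and bars for 1 SD of 3 samples. The ratio of Itgb4 to Itga6 lies between 0.593 and 1.15 in the 6 WT samples and between 0.0722 and 0.189 in the 6 A159V samples.

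The response to anti-PD1 was then compared within each genotype. In WT cells no member passed the test in edgeR, against a background of 0.628% of genes called, but 8 of 9 had positive log2 values (median 0.61, against 0.01 over all genes). An unadjusted p under 0.05 was found for 5 of the 9 members and for 27.5% of all genes. The WT anti-PD1 and WT IgG samples did not overlap for Itga1, Itga6, Itgav, Itgb1, Itgb3 and Itgb5, or 6 of 9 members against 34.6% of all genes. The largest values were those of Itgb3 (log2 1.27 ± 0.39, adjusted p = 0.0876) and Itga1 (log2 1.01 ± 0.29, adjusted p = 0.0797), and Itgb5 came closest to the threshold (log2 0.64 ± 0.15, adjusted p = 0.0586). The count turned on 1 sample: without WT IgG replicate 4, Itga1, Itga5, Itgav, Itgb3 and Itgb5 were called higher, in a fit that called 3458 genes against 90 with all samples. DESeq2 called Itga1 and Itgb5 among 1426 genes.

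In A159V cells the same comparison leaned the other way without reaching the threshold. No member was called by edgeR or DESeq2, and no gene at all was called by edgeR (background 0%), while DESeq2 called 2 genes. Of the 9 members 8 had negative log2 values (median -0.30, against 0.01 over all genes), 1 (Itgb5) had an unadjusted p under 0.05 against 3.63% of all genes, and samples did not overlap for Itga6 and Itgb5, against 11% of all genes. Itgb5 was at log2 -0.39 (95% interval -0.73 to -0.06) and Itga6 at -0.42 (95% interval -0.94 to 0.10).

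The difference between the 2 responses was tested as the interaction of genotype with antibody. All 9 values were negative (median log2 -0.76, against 0.01 over all genes), and 5 of 9 members had an unadjusted p under 0.05 (Itga1, Itga6, Itgav, Itgb3 and Itgb5), against 17.6% of all genes. None passed after adjustment in edgeR, against a background of 0.00697% (1 gene). Itgb5 was lowest in p (log2 -1.03 ± 0.21, unadjusted p = 0.000231, adjusted p = 0.133). DESeq2 called 272 genes, of the members Itgb5 alone (adjusted p = 0.00198), and edgeR without WT IgG replicate 4 called 1182 genes, among them Itga1, Itgav and Itgb5. The interaction shares its samples with the within-genotype comparisons and is not separate evidence.

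Itgal, Thbs1 (thrombospondin 1, a matrix ligand of αv and β1 receptors), Prex1 and Dok1 were among the few adhesion genes called in WT cells after anti-PD1. Itgal rose to 14.5, 12.1 and 12.25 CPM (log2 0.98 ± 0.15, adjusted p = 0.0188), and Thbs1 rose from 3.11 to 15.2 CPM (log2 2.28 ± 0.45, adjusted p = 0.0410). Itgal lost its call without WT IgG replicate 1 or any of the 3 WT anti-PD1 samples, and Thbs1 lost its call without WT IgG replicate 1 or 2 or any WT anti-PD1 sample. From WT IgG to WT anti-PD1 the mean T and NK cell marker sum went from 2.81 to 15.3 CPM. The pan-leukocyte sum went from 8.56 to 32.8 CPM, and the part of these cells in the Itgal rise was not tested. Prex1, a RAC exchange factor, also rose (1.09 to 3.83 CPM, log2 1.80 ± 0.24, adjusted p = 0.0129), and lost its call without WT anti-PD1 replicate 1 or 2 or WT IgG replicate 1. Dok1, a docking protein that binds β-subunit tails, fell from 66.5 to 39.4 CPM (log2 -0.75 ± 0.14, adjusted p = 0.0369), and lost its call without WT IgG replicate 1 or 2 or any WT anti-PD1 sample.

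Inside the cell, of 24 adhesion linkers 23 were tested, 9 rose and 3 fell in A159V cells under IgG (median log2 0.30), beside 15.6% and 12.4% of all genes, and under anti-PD1 1 rose and 5 fell (median -0.03), beside 11.2% and 10.2%. The share of linkers that fell under IgG was close to the background. Without WT IgG replicate 2, 4 rose and 2 fell under IgG, and 1 fell without A159V IgG replicate 1 or 2. Leaving out any 1 sample left 0 risen and 2 to 5 fallen linkers under anti-PD1, with 2 fallen without WT anti-PD1 replicate 3 or A159V anti-PD1 replicate 3. Vcl, which encodes vinculin, rose from 29.3 to 70.7 CPM under IgG (log2 1.27 ± 0.34, adjusted p = 0.0166), a call lost without WT IgG replicate 2 or with only the groups compared. An antisense gene overlaps 25.5% of the exon bases of Vcl. Lims2 (PINCH2) and Parvg (γ-parvin), partners of integrin-linked kinase, were low and higher in A159V IgG (3.11 against 0.703 CPM and 2.11 against 0.587 CPM). Tns1, a tensin that binds β-subunit tails, was lower in A159V cells under IgG (4.77 against 13.6 CPM, log2 -1.51, adjusted p = 0.0366), a call lost without WT IgG replicate 2 or 4 or A159V IgG replicate 1 or 2, and under anti-PD1 (3.21 against 32.3 CPM, log2 -3.32, adjusted p = 0.000919). Tns3 (log2 -0.56, adjusted p = 0.0347) and Pdlim7 (log2 -0.54, adjusted p = 0.0177) were lower under anti-PD1, Tns3 losing its call without any WT anti-PD1 sample or A159V anti-PD1 replicate 2 or 3, and Pdlim7 without replicate 3 of either genotype or A159V anti-PD1 replicate 1. Lims2 was called higher there too (log2 0.88, adjusted p = 0.0401), a call kept in 3 of 13 alternatives, with no fold limit, which cannot lose it, among the 3. Ilk itself was counted at 5 to 15 reads per library, and 89.7% of its exon bases lie under antisense genes. How reads in that overlap were counted is not known, since counting mode and strand setting are not given in the sources used here.

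On the route from integrins to RAC1, of 28 signaling genes 27 were tested, 12 rose and 1 fell in A159V cells under IgG (median log2 0.44), beside the same background of 15.6% and 12.4%, and 4 rose and 3 fell under anti-PD1 (median 0.07), beside 11.2% and 10.2%. Leaving out 1 sample gave 10 to 15 risen and 1 to 2 fallen under IgG, and 2 to 3 and 1 to 3 under anti-PD1, with 2 and 1 without replicate 3 of either genotype. The exchange factors Prex1 (4.20 against 1.09 CPM, log2 1.93 ± 0.24, adjusted p = 0.000218), Vav1 (6.56 against 1.72 CPM, log2 1.93 ± 0.21, adjusted p = 9.53e-05) and Tiam1 (17.7 against 7.30 CPM, log2 1.28 ± 0.19, adjusted p = 0.000775) were higher under IgG. Elmo1, the partner of DOCK1, was higher too (2.69 against 0.886 CPM, log2 1.61 ± 0.39, adjusted p = 0.00952), a call lost with only the groups compared (adjusted p = 0.0538 in edgeR). Under anti-PD1 the 4 largest changes went both ways. Arhgef6 (αPIX) was lower in A159V cells (2.36 against 5.99 CPM, log2 -1.34 ± 0.29, adjusted p = 0.00614). Nedd9, a scaffold of the p130Cas family, was lower as well (42.1 against 78.0 CPM, log2 -0.89 ± 0.25, adjusted p = 0.0236), a call lost without WT anti-PD1 replicate 3 or any A159V anti-PD1 sample. Vav1 (log2 1.03 ± 0.20, adjusted p = 0.00352) and Git1, a partner of the PIX proteins (253 against 170 CPM, log2 0.57 ± 0.12, adjusted p = 0.00467), were higher. Rac1 itself was at 420 CPM in A159V IgG against 451 CPM in WT IgG, with overlap (log2 -0.11, 95% interval -0.45 to 0.24, adjusted p = 0.624), and 51.4% of its exon bases lie under the antisense gene Daglb. The integrin activators and inhibitors, 15 of 16 tested, were mostly uncalled, with 1 higher (Flna) and 1 lower (Sharpin) under IgG. Flna lost its call with the other 2 scalings and without any of WT IgG replicates 1 and 2 and A159V IgG replicates 1, 2 and 5, and Sharpin without WT IgG replicate 1 or 2 or A159V IgG replicate 1 or 2. Under anti-PD1 edgeR called 0, DESeq2 called 2 lower, and 5 of 15 had an unadjusted p under 0.05, no larger a share than the 35.8% of all genes.

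**Figure D4:**
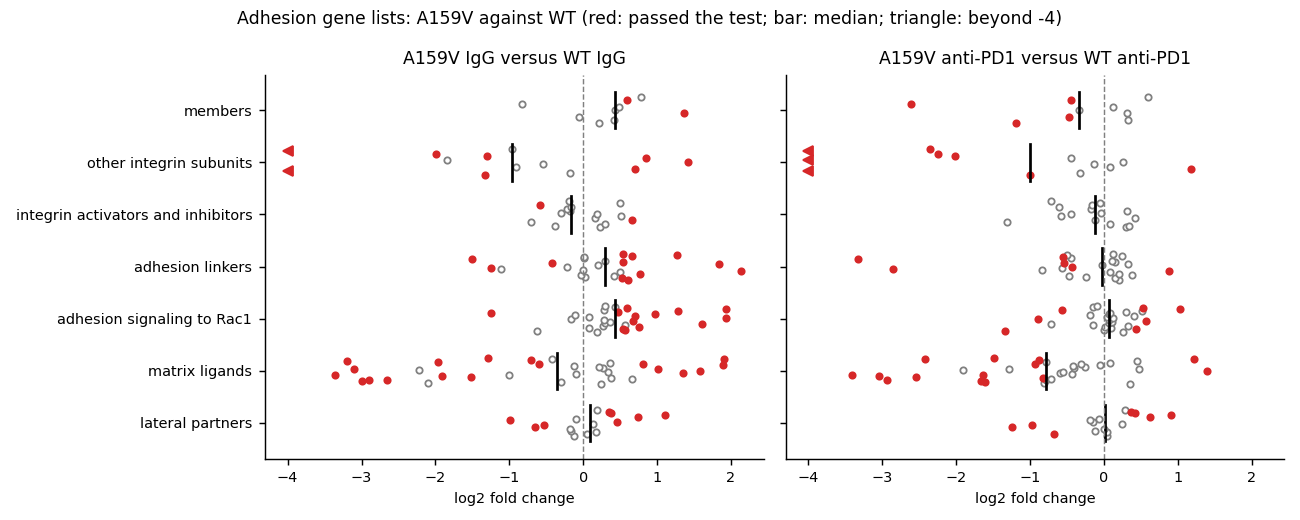
Log2 fold change of A159V against WT (horizontal axes) for each tested gene of 7 adhesion lists (rows), under IgG (left) and anti-PD1 (right). Red points passed the test, open points did not, bars are list medians and triangles are genes beyond -4, whose fitted values depend on counts of 0 or near 0. The median of the 9 tested members moves from 0.42 under IgG to -0.34 under anti-PD1.

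Partners that sit beside integrins in the membrane moved in both directions. Of 16 lateral partners 5 rose and 3 fell under IgG (15.6% and 12.4% of all genes), and 4 rose and 3 fell under anti-PD1 (11.2% and 10.2%). With relative-log-expression scaling in place of trimmed means, the counts of risen partners were 2 and 1. Leaving out 1 sample gave 2 to 4 risen partners under IgG, with 2 without replicate 2 of either genotype or A159V IgG replicate 1, and 1 to 2 under anti-PD1. Sdc1 (syndecan 1), a co-receptor for αv integrins, was higher in A159V cells under IgG (184 against 85.3 CPM, log2 1.11 ± 0.11, adjusted p = 7.62e-05). The tetraspanin Cd81 was lower under IgG (147 against 232 CPM, log2 -0.65, adjusted p = 0.00491) and under anti-PD1 (120 against 283 CPM, log2 -1.24, adjusted p = 0.000117). Plaur, the urokinase receptor, was higher under IgG (222 against 133 CPM, log2 0.74, adjusted p = 0.0130), and Lgals1 (galectin 1) was lower (742 against 1481 CPM, log2 -0.997, adjusted p = 0.00631). Plaur and Lgals1 lost these calls with only the groups compared (adjusted p = 0.106 and 0.0502 in edgeR). Under anti-PD1 Sdc1 was again higher (log2 0.91, adjusted p = 0.000198), the tetraspanin Cd82 was lower (34.5 against 67.5 CPM, log2 -0.97, adjusted p = 0.000528), and Cav1 (caveolin 1) was lower (log2 -0.67, adjusted p = 0.0229), a call lost without WT anti-PD1 replicate 2 or 3 or any A159V anti-PD1 sample. Cd151, a tetraspanin that binds α3β1 and α6 integrins, was not called in either (log2 0.18 and 0.04).

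Markers of other cells moved with some of these groups. The 13 T and NK cell markers summed to 3.33, 2.39 and 2.71 CPM in WT IgG, 11.5, 24.2 and 10.3 CPM in WT anti-PD1, 1.01, 1.39 and 0.585 CPM in A159V IgG and 1.47, 1.17 and 1.17 CPM in A159V anti-PD1. The most abundant over the 12 samples was Cd8a, with 33 to 85 counts in WT anti-PD1 and at most 6 in any other sample, and Cd3e had 0 counts in all A159V anti-PD1 samples. Of the 7 tested, 4 were higher in WT anti-PD1 than WT IgG and all 7 were lower in A159V anti-PD1 than WT anti-PD1. The 4 fell to 0 without any of WT IgG replicates 1 and 2 and WT anti-PD1 replicates 1, 2 and 3 and with only the groups compared, and became 7 without WT IgG replicate 4, while 5 to 9 markers were called lower in A159V anti-PD1 with 1 sample left out, in fits whose own filter kept 6 to 10 of the 13. The 5 pan-leukocyte markers, led by Laptm5, summed to 28.1 to 41.3 CPM in WT anti-PD1, 3.67 to 13.6 CPM in WT IgG and 3.67 to 5.48 CPM in A159V samples. WT anti-PD1 is also the group in which the Itga1 and Itgb3 samples stood above all others, and the part of these cells in those values was not tested.

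Of the 10 fibroblast markers, which include Col1a1, Col1a2 and Col3a1 of the ligand list, 7 were lower and 0 higher in A159V cells under IgG. Under anti-PD1 6 were lower and 1 was higher. All genes gave 12.4% lower and 15.6% higher under IgG, and 10.2% and 11.2% under anti-PD1. The higher marker was Acta2, at 2.56, 1.28 and 2.89 CPM in A159V against 0.569, 0.603 and 0.278 CPM in WT. Under IgG Pdgfra was not lower, at 63.6, 84.95 and 62.9 CPM in A159V against 26.3, 42.5 and 68.96 CPM in WT. Col3a1 was the most abundant marker, and none was at 0 counts. In WT the 10 markers summed to 1204, 575 and 990 CPM with IgG and 798, 1063 and 1666 CPM with anti-PD1. In A159V the markers summed to 270, 316 and 251 CPM with IgG and 264, 295 and 348 CPM with anti-PD1. Their part in the lower Itgb8 and collagen levels was not tested. Of the 6 endothelial markers, led by Cdh5, 2 were tested and both were lower in A159V anti-PD1 than in WT anti-PD1, where the sums were 7.18 to 8.85 and 13.5 to 15.1 CPM. With 1 sample left out, 1 of them was called without WT anti-PD1 replicate 1 and 0 without any of the other 5 samples. Their part in the Itgb3 difference was not tested. The 13 myeloid markers, led by Cd68, summed to 27.3 to 31.5 CPM in WT IgG and 42.1 to 58.9 CPM in A159V IgG, and the 5 B cell markers, led by Cd79a, to 7.28 to 7.77 and 13.3 to 14.9 CPM. With 1 sample left out, 1 myeloid marker was called higher and 0 to 1 lower in A159V IgG, beside 2 B cell markers higher and 0 lower. Their part in the Itgb7 and Itgal levels was not tested.

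**Figure D5:**
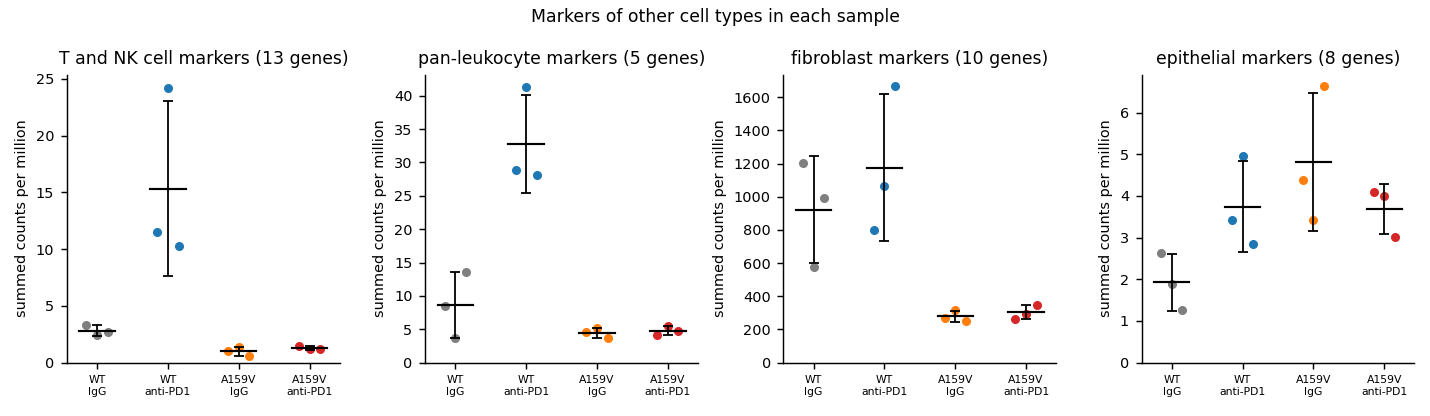
Summed CPM (vertical axes, linear from 0) of 4 marker lists in the 4 groups (horizontal axes), with points for single mice, lines for means and bars for 1 SD of 3 samples. T and NK cell and pan-leukocyte sums are highest in the 3 WT anti-PD1 samples, and fibroblast sums are 575 CPM or more in WT and 348 CPM or less in A159V samples.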

How the data were processed

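The authors aligned paired 100-bp reads to mm10 with STAR, handled them with Samtools and counted them per gene with summarizeOverlaps. Versions, counting mode and strand setting are not given in the sources used here. The deposited values are raw counts per gene in 1 table, and no authors' comparison was used. The members and gene lists were chosen with earlier results of these data known. Symbols and positions came from GENCODE M21.

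Counts were tested with edgeR 4.0.16 in R 4.3.3: filterByExpr by group (14340 genes kept), trimmed-mean scaling, and quasi-likelihood tests on all 12 samples (8 residual degrees of freedom), two-sided with Benjamini-Hochberg adjustment. The interaction had no fold limit. Each SE in edgeR is the absolute log2 fold change divided by the square root of the quasi-likelihood F, so it restates the test. Intervals of 95% use this SE and the residual degrees of freedom alone, so they are wider than the test. CPM for genes that were not tested use the same scaling. Scripts were tested on simulated data. The floor of 3 counts covers counting error only, since no molecular identifiers are described.

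Named from the other lists were called genes with a mean of at least 1 CPM, at most the 4 with the largest change per list and comparison, plus ligands and partners of members whether or not called. Ilk, Rac1, Rap1a, Yes1, Cd151, Itgb2 under IgG, the count of collagens and the overlaps between gene models were looked at after values were seen. Alternatives were relative-log-expression and upper-quartile scaling, no filter, DESeq2 1.42.0, only the groups compared, the replicate number as a block, no fold limit and leaving out each sample. The setting with no fold limit uses the main fit, so it can add calls but not lose them. Motif searches and sums used Python 3.11.15.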

Additional observations from a re-analysis of the deposited data

Results flagged for a closer look

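Itga6 and Itgb5 stood out because every WT anti-PD1 sample lay above every WT IgG sample while every A159V anti-PD1 sample lay below every A159V IgG sample. For Itga6 the nearest samples were 54.38 and 54.45 CPM in WT and 93.64 and 93.49 CPM in A159V, which nearly touch, and for Itgb5 they were 67.4 and 78.3 CPM in WT and 78.95 and 68.5 CPM in A159V. The anti-PD1 response in A159V minus that in WT was -1.05 for Itga6 and -1.03 for Itgb5 on the log2 scale. Tested as an interaction in edgeR, neither difference passed (adjusted p = 0.204 and 0.133).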

How the results depend on the processing

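Of 620 alternative values of the members, 559 kept their direction and side of the threshold, 16 lost a call, 29 gained one and 16 changed sign, with no value above 0.22 in size on either side of such a change. The values with no fold limit are among them. They keep the main fit, so they could not lose a call or change sign. Members called numbered 2 in A159V IgG against WT IgG (1 with only the groups compared, 1 to 5 leaving out 1 sample), 4 in A159V anti-PD1 against WT anti-PD1 (1 to 2), 0 in WT anti-PD1 against WT IgG (2 in DESeq2, 1 with no filter, 0 to 5) and 0 in the interaction (1 in DESeq2, 0 to 3). Genes called numbered 4010 (1399 with only the groups compared, 2578 to 4717), 3075 (5320 with only the groups compared, 1519 to 2171), 90 (0 with only the groups compared, 1426 in DESeq2, 771 with no filter, 1 to 3458) and 1 (272 in DESeq2, 37 with no filter, 0 with upper quartiles, 0 to 1182) in the same order, and 0 in A159V anti-PD1 against A159V IgG (2 in DESeq2). Leaving out 1 sample turned Itga1 (-0.12 to 0.43) and Itga5 (-0.23 to 0.14) in A159V IgG against WT IgG, Itga5 (-0.18 to 0.0333) and Itgb1 (-0.19 to 0.0815) in A159V anti-PD1 against A159V IgG, and Itga3 (-0.25 to 0.0711) and Itgb7 (-0.41 to 0.0053) in the interaction. With only the groups compared, Elmo1, Flna, Fn1, Itga7, Itgb2, Lama1, Lama3, Lamc1, Lgals1, Plaur, Sharpin, Spp1, Tns1 and Vcl lost their calls under IgG. Dok1, Itgal, Prex1 and Thbs1 then lost theirs in WT anti-PD1 against WT IgG. The causes were not tested.

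Replicate numbers mark different mice, and deviations of same-numbered samples correlated between -0.178 and 0.205, so the numbers do not pair the samples. Replicate number 4 occurs only in WT IgG and number 5 only in A159V IgG. A block on the number therefore gives each of these samples a term of its own. In effect that fit drops both and compares the IgG groups on replicates 1 and 2 alone. As a block the replicate number gave 5, 5 and 4 members called in A159V IgG against WT IgG, WT anti-PD1 against WT IgG and the interaction, where 5867, 4650 and 2760 of all genes were called, and 5018 genes called in A159V anti-PD1 against WT anti-PD1. It turned Itga3 in WT anti-PD1 against WT IgG (0.0134), Itga5 in A159V IgG against WT IgG (0.0352) and Itgb7 in the interaction (0.0449). Counts under 3 in a library, as for Itga2, were below what this depth can tell from 0, and lists were tried under the same alternatives after seeing the data.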
